A study of Homo sapiens with 5 samples.

Results

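Multidrug resistance-associated proteins are ATP-driven pumps that carry organic anions, among them glutathione and glucuronide conjugates, out of the cell, and the taurine transporter brings the sulfur-containing osmolyte taurine into it. Binding of NRF2 was examined at the genes of 5 of these pumps, ABCC1 to ABCC5, and at SLC6A6, the gene of the taurine transporter, 6 genes in all. Each gene was represented by a window in hg19 coordinates, and a peak belonged to it when its summit lay inside the window. The window ends are round coordinates, and gene starts and ends in hg19 were not used. A position in a window is therefore not a position in the gene. The windows held 3 of the 4124 peaks of the series' 2 lists, all 3 from cells treated with sulforaphane (SFN). They lay in the windows of ABCC3, SLC6A6 and ABCC1, 1 in each, and the windows of ABCC2, ABCC4 and ABCC5 held no peak of either list.

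The measurements were peak lists from chromatin immunoprecipitation and sequencing (ChIP-seq) of BEAS-2B, an immortalised cell line from human bronchial epithelium. Cells received 10 µM D,L-sulforaphane (2 samples) or 0.1% DMSO as vehicle (2 samples) for 5 h before NRF2-bound DNA was recovered, and 1 further vehicle sample was precipitated with rabbit IgG. Only 1 list exists per treatment, with no value per sample, so replicate error is unknown and no difference between treatments was tested. The SFN list rested on 7448599 tags that remained once only 1 tag per position was allowed and the vehicle list on 1459665, a difference of 5.10 times, and they held 1925 and 2199 peaks.

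NRF2 is a transcription factor that is held at low level by KEAP1-directed degradation until electrophiles such as sulforaphane modify KEAP1. It then pairs with small MAF proteins and binds antioxidant response elements at genes of glutathione synthesis, conjugation, quinone reduction and export. Pumps of the ABCC family remove the conjugates that these enzymes produce, which is why they are counted with the detoxification response.

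The ABCC3 window held the tallest of the 3 peaks. ABCC3, also called MRP3, exports glucuronides and bile salts across the basolateral membrane. The peak spanned chr17:48739112-48739479 in hg19, 368 bp, with its summit 39.3 kb above the lower end of the 80.0 kb window, near its middle. There were 65 tags at the summit (exact Poisson 95% interval 50.2 to 82.8, which covers counting error only). In the authors' deposited table its fold over the local control was 28.2, its −log10 p 85.0 and its −log10 q 79.3, and folds, tags and q values below are likewise the authors'. By fold it stood at place 15 of the 1925 SFN peaks, with 0.727% of the list above it, and at place 19 by −log10 p. By tags at the summit it stood at place 316, since many SFN peaks in places of high control were taller. The local control level at the peak, computed back from the fold and the tags, was 1.34 tags, or 3.17 times the genome average expected at this depth. No other SFN peak lay within 271 kb.

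SLC6A6 had the next highest of the 3. Its product takes up taurine together with sodium and chloride. The peak spanned chr3:14452202-14452515, 314 bp, and its summit lay 22.4 kb above the lower end of the 110.0 kb window, 20.3% of the way along it. It had 40 tags at the summit (exact Poisson 95% interval 28.6 to 54.5), a fold of 22.6 and a −log10 q of 48.4. It stood at place 26 by fold, with 1.30% of the list above it, at place 56 by −log10 p and at place 662 by tags. Its control level of 0.810 tags was 1.92 times the genome average, the lowest of the 3, and the nearest other SFN peak was 1568 kb away.

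The peak in the ABCC1 window was of another size. ABCC1, or MRP1, exports glutathione conjugates, glutathione disulfide and leukotriene C4. The peak spanned chr16:16115992-16116144, with its summit 86.1 kb above the lower end of a 215.0 kb window. It had 16 tags at the summit (exact Poisson 95% interval 9.15 to 26.0), a fold of 6.57 and a −log10 q of 7.72, and the control level was 3.76 times the genome average. By fold 24.5% of the SFN list stood above it (place 473), and by tags 62.5% (place 1204). Its length of 153 bp was the shortest in the SFN list and equal to the fragment length of 153 bp that the caller estimated. Of all SFN peaks, 278 (14.4%) had this length, with a median of 8 tags, and 39 of these had 16 tags or more. The 36 SFN peaks with exactly 16 tags had a median length of 202 bp.

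**Figure D1:**
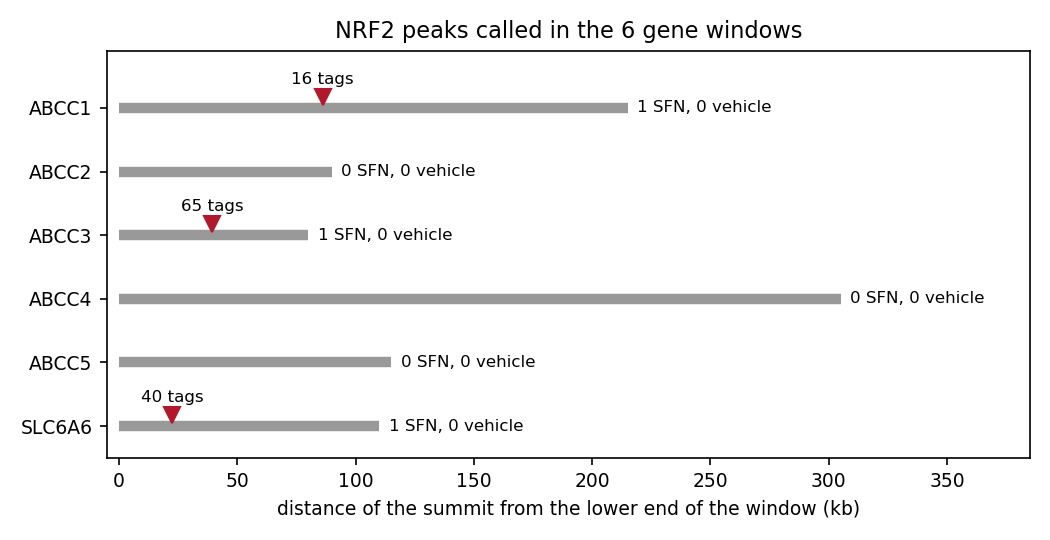
Map of the 6 gene windows to scale, with the distance of each peak summit from the lower end of its window in kb on the x axis. Triangles are SFN peaks, labelled with the tags at the summit: 65 in ABCC3, 40 in SLC6A6 and 16 in ABCC1. No vehicle peak lay in any window, and ABCC2, ABCC4 and ABCC5 held none of either list.

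The 3 peaks thus formed a pair of high fold and a lower one. The tags at ABCC3 were 1.63 times those at SLC6A6, and their counting intervals overlapped in part. The difference itself was not tested. The tags at SLC6A6 were 2.50 times those at ABCC1 and the tags at ABCC3 4.06 times, and in both cases the intervals did not overlap. At SLC6A6 alone the control level was under 3 times the genome average, as it was at 37.7% of SFN peaks. By fold, which takes the local control into account, ABCC3 was 1.25 times SLC6A6 and 4.30 times ABCC1. In the SFN list 34 peaks (1.77%) had a fold of 20 or more, a limit chosen after the values were seen, and the ABCC3 and SLC6A6 peaks were among them. The 3 peaks in 915 kb of windows correspond to 3.28 per Mb, beside 0.713 per Mb for the SFN list over the caller's effective genome size. The windows were chosen for known or suspected NRF2 target genes with earlier results of these data known, so this density is a description only.

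**Figure D2:**
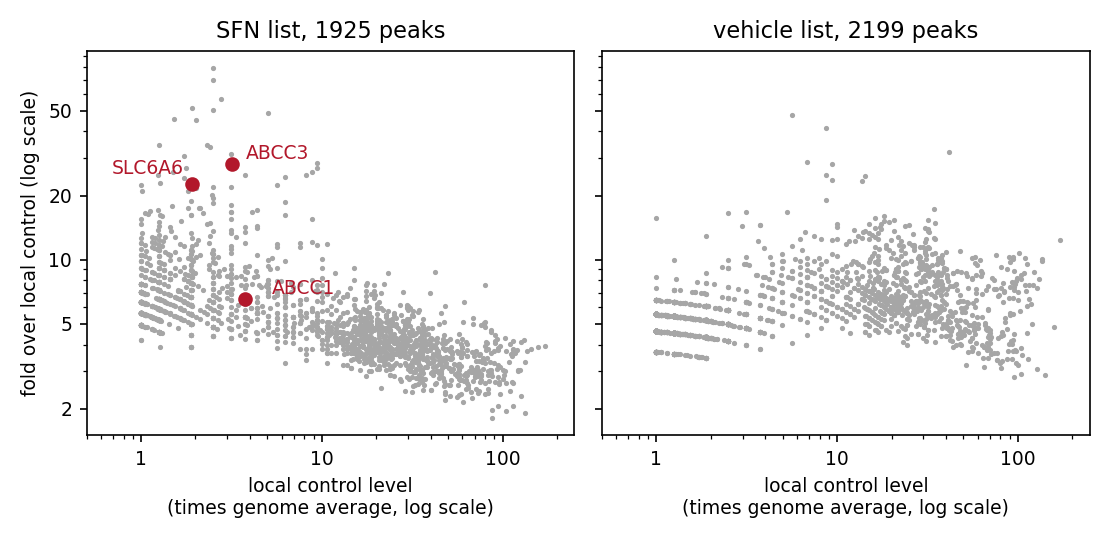
Fold over the local control against the local control level as a multiple of the genome average, both on log scales, for every peak of the SFN list (left) and the vehicle list (right). Red points mark the ABCC3 (fold 28.2), SLC6A6 (22.6) and ABCC1 (6.57) peaks. The first 2 stand among the higher folds of the SFN list, at control levels of 3.17 and 1.92 times the genome average. The ABCC1 peak, at 3.76 times, lies within the body of the list.

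The genes without a peak were ABCC2 (MRP2), which exports bilirubin glucuronides across the apical membrane, and ABCC4 and ABCC5 (MRP4 and MRP5), which export cyclic nucleotides and nucleotide analogs. Their windows on chromosomes 10, 13 and 3 covered 510.0 of the 915.0 kb. Over the caller's effective genome size the SFN list held 0.713 peaks per Mb and the vehicle list 0.814. At these rates, windows of this length without a peak do not set the 3 genes apart. The SFN peak nearest to the ABCC2 window lay 2969 kb below it, with 34 tags but a fold of 3.24 at a control level of 23.2 times the genome average. For ABCC4 the nearest lay 2315 kb above, with 9 tags and a fold of 7.03. ABCC5 was the exception among these 3 genes, with a small SFN peak at chr3:183803535-183803687, 58.7 kb above its window, of 7 tags and a fold of 5.23. A second small peak of this kind lay 56.5 kb below the ABCC1 window at chr16:15973383-15973571, with 9 tags and a fold of 5.92. Which gene either of these flanking peaks belongs to was not determined. At a control level equal to the genome average a stack of 5 tags was the smallest that reached the weakest p of the SFN list, and 5 was also the lowest height called there. Binding at ABCC2, ABCC4 and ABCC5 that gives fewer tags than this was not detectable at this depth. The control level inside these 3 windows was not measured, and where it exceeds the genome average a taller stack is needed.

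Promoter sequences of GRCh38.p14 from RefSeq, which run from 250 bases before to 50 after a gene's start, were matched for 3 of the 6 genes (ABCC2, ABCC4 and ABCC5). They are shown here for the genes without a peak. The core of the antioxidant response element, written TGACNNNGC and searched on both strands, had 1 match in the ABCC4 promoter, 149 bases before the start and on the strand opposite to the gene, and none in the ABCC2 and ABCC5 promoters. The AP-1 site, written TGANTCA, which can overlap the element, had no match in the 3 promoters. Of all 35116 promoters in the table, 13.3% hold the core element and 7.71% the AP-1 site. The 29 bases around the ABCC4 match lie at chr13:95301582-95301610 (GRCh38.p14). They are printed 5′ to 3′ on the gene's strand, which is the minus strand, with the 9 bases of the match in capitals, and the element reads there in reverse complement.
ABCC4 promoter: gtctcctcccGCCGCGTCAcccgtcggtc
This match is a description of letters in a window in which neither list had a peak. For ABCC1, ABCC3 and SLC6A6 no promoter sequence was available, so none was searched.

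No vehicle peak had its summit in any of the 6 windows, and none of the 3 SFN peaks overlapped a vehicle peak. The vehicle list held 0.814 peaks per Mb over the caller's effective genome size, and the windows cover 915 kb. At that rate, a lack of vehicle peaks does not set these windows apart. Of all SFN peaks 37.9% overlapped one by at least 1 bp, and of the 34 with a fold of 20 or more 44.1% (15 peaks) did. The vehicle peak nearest to the ABCC3 peak lay 3087 kb away, that nearest to SLC6A6 1182 kb and that nearest to ABCC1 1053 kb, and they had 5, 6 and 5 tags. Over the 1195 unshared SFN peaks the median distance to one was 349 kb, and 26.8% lay more than 1000 kb from one.

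Since the vehicle list had fewer usable tags, the height that each peak would have at the vehicle depth, if the same share of tags fell on it, was set beside the smallest height that could be called there. That smallest height was 4 tags at the control level of each of the 3 peaks. The ABCC3 peak scaled to 12.7 tags (95% interval 9.83 to 16.2) and the SLC6A6 peak to 7.84 tags (5.60 to 10.7), both above 4. The ABCC1 peak scaled to 3.14 tags (1.79 to 5.09), an interval that spans 4. These intervals carry the counting error of the SFN height only. The spread of a vehicle count around the scaled height is not in them, so whether a call would follow was not tested. No tags of the vehicle library at these places were measured, so the part of depth in the missing calls was not tested. Efficiency of precipitation in the 2 libraries was not measured, and the caller also asks for a stretch of a fragment's length, so a missing call is not a measured absence of binding.

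**Figure D3:**
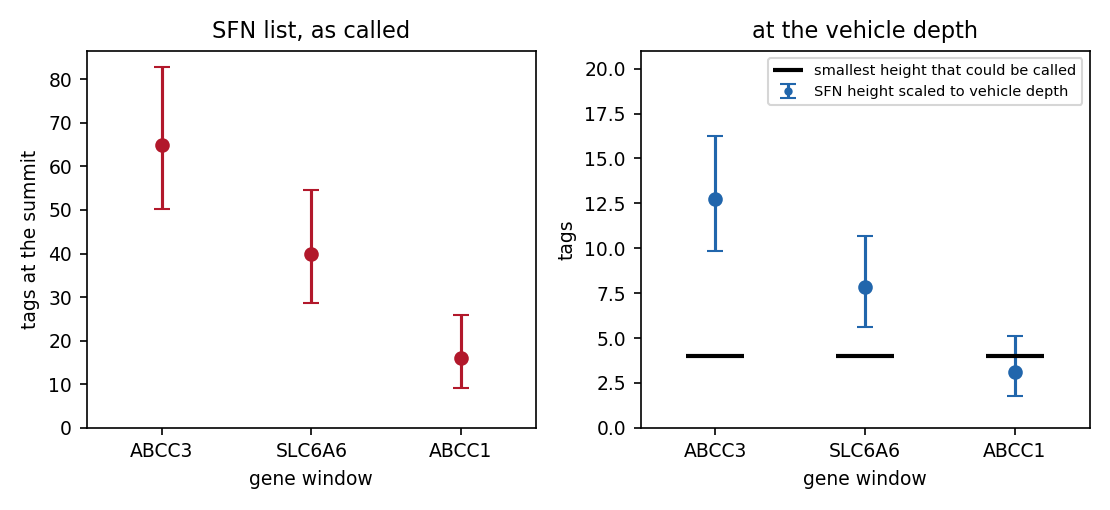
Left, tags at the summit of the ABCC3, SLC6A6 and ABCC1 peaks in the SFN list. Right, the same heights scaled to the kept tags of the vehicle list, with black bars at 4 tags, the smallest height that could be called there. Error bars are exact Poisson 95% intervals of the SFN height and cover its counting error only, not that of a vehicle count. The ABCC3 and SLC6A6 intervals lie above 4 tags and the ABCC1 interval spans it.

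Heights in the vehicle list at other SFN peaks of high fold give a scale for these values. At the 15 SFN peaks with a fold of 20 or more that overlapped a vehicle peak, the SFN heights were 44 to 162 tags and the vehicle heights 4 to 53, with a median of 12. Per 1000000 kept tags, the vehicle height was 0.246 to 2.20 times the SFN height, with a median of 0.687, and it was the lower of the pair at 9 of the 15. These peaks had to be called in both lists, so the ratio describes only such peaks. In the same unit the ABCC3 peak had 8.73 tags in the SFN list and SLC6A6 5.37, and the smallest height that could be called in the vehicle list was 2.74.

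SFN peaks most like each of the 3 were also compared, taken as those within 1.2 times its height and 1.5 times its control level, limits set with the data in view. There were 4 like the ABCC3 peak, and 1 of them overlapped a vehicle peak, which had 20 tags. There were 9 like the SLC6A6 peak, with heights of 36 to 46 tags, and 2 of them overlapped vehicle peaks, of 6 and 19 tags. There were 68 like the ABCC1 peak, and 8 of them overlapped vehicle peaks, of 8 to 11 tags. Vehicle heights for all of these like peaks exist only where both lists had a call, so they describe only such peaks. Most SFN peaks within these limits of each of the 3 members thus had no vehicle peak either. Over the whole SFN list 37.9% overlapped a vehicle peak, and 44.1% of the 34 with a fold of 20 or more did. In length, the ABCC3 peak of 368 bp was equal to the shortest of the 4 like it, which had 368 to 753 bp. The SLC6A6 peak of 314 bp lay above the median of those like it (287 bp), and the ABCC1 peak of 153 bp below that of its own kind (194 bp).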

How the data were processed

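NRF2 ChIP-seq peaks of BEAS-2B cells were taken from 2 deposited lists. Per the file headers, the caller was MACS 2.1.0.20140616, with at most 1 tag per position, a q cutoff of 0.05, 36 bp tags and a shared control. Both lists had the same 28125771 kept control tags. The only IgG sample in the labels came from vehicle cells, and no control from SFN-treated cells is labelled. CASAVA 1.4, BWA and hg19 are named in the submitters' processing notes. It is unknown here whether samples of a treatment were pooled, or came from separate cultures. Of 23090154 SFN tags 32.3% were kept and of 11377334 vehicle tags 12.8%, per the file headers. The authors deposited, per peak, a signal (tag pileup at the summit), a ratio (fold over the local control), and −log10 p and −log10 q values.

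The local control level was computed as (pileup + 1)/fold − 1, and with it the deposited −log10 p was recovered within 0.001 for all peaks of both lists. The overlap and window functions were tested on simulated data. Python 3.11.15, pandas 2.3.3 and scipy 1.17.1 were used. All 6 genes and every peak in their windows are named, and for each window without a peak the nearest SFN peak. The members, windows and limits were chosen with earlier results of these data known. A genome or annotation of hg19 was not used here, so exon, intron or UTR was not assigned, peak sequences are not printed, and other planned transporter genes were not counted. Gene symbols were found among the RefSeq genes for 6 of 6 genes, and a promoter sequence was available for 3 of them.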

Additional observations from a re-analysis of the deposited data

How the results depend on the processing

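The 3 SFN peaks and 0 vehicle peaks in the windows, and the 0 SFN peaks overlapping a vehicle peak, were the same with a −log10 q of 5 or more and with windows widened by 50 kb. The peak counts were also the same with any base of a peak counted and with windows widened by 10 kb, and the overlap with 50% of either peak or with summits within 500 bp. In settings added after the data were seen, the SFN count became 5 with windows widened by 100 kb, through the small peaks beside ABCC1 and ABCC5, and 1 (SLC6A6) at a control level under 3, since the ABCC3 and ABCC1 peaks had control levels of 3.17 and 3.76. The vehicle count stayed 0 in both. No paired analysis was possible because both treatments have a single list without values per sample, and for the same reason no sample could be left out. The vehicle list rested on 1459665 kept tags, and vehicle tags outside its peaks were not measured.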
